A study of Mus musculus with 24 samples.

Results

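The DNA methyltransferases Dnmt1, Dnmt3a, Dnmt3b and Dnmt3l and the hemimethylated-DNA binding cofactors Uhrf1 and Uhrf2 were examined in mouse hippocampus. All probes that the identifiers in the per-array files map to these 6 symbols were taken, which gave 10 of the 39429 non-control probes on the array (26055 of them carried a symbol, for 19751 symbols). Dnmt1, Dnmt3a and Dnmt3l had 1 probe each, Uhrf1 and Uhrf2 had 2 each, and Dnmt3b had 3.

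Hippocampal RNA was hybridized to single-color Agilent mouse arrays in 4 groups of 6 arrays, 24 in all. CD F1 and MD F1 were the offspring of C57BL/6J fathers and 129S6/SvEv mothers (congenic hybrids in the labels). The fathers had eaten control chow (CD) or, for 6 weeks before mating, a methyl donor-rich version of it (MD) with added zinc (150 mg), folic acid (15 mg), vitamin B12 (1.5 mg), betaine (15 g), choline (15 g) and methionine (7.5 g). CD F2 and MD F2 (mixed hybrids in the labels) were the offspring of CD F1 or MD F1 males and CD F1 females, so that the diet reached them only through a grandfather. Each F2 array also carried the code lh or rh, both present in each F2 group. Whether lh and rh arrays held different mice was not tested. F1 and F2 mice themselves ate control chow, and no group carried an engineered allele. Each array held a pool of 4 mice according to the methods; the age is 4 weeks in the labels, whereas the methods describe adult mice. F1 mice are genetically alike whereas F2 mice segregate both parental genomes, so genetic background, slide and scan differ together between the generations and cannot be told apart. The balance of Xist and Y-linked signal (given below) differed between the generations as well. Each array was treated as a replicate pool, and the p-values below measure the spread between arrays. For F2 this is the spread between separate pools of mice only if lh and rh arrays held different mice. The F2 SEs, confidence intervals and p-values depend on that condition.

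DNA methylation in mammals is laid down by de novo enzymes and copied at replication by a maintenance enzyme. DNMT3A and DNMT3B methylate unmodified CpG sites, and in neurons DNMT3A also methylates cytosines outside CpG sites. DNMT3L has no catalytic activity of its own and stimulates both de novo enzymes, mainly in germ cells. DNMT1 copies the pattern onto the new strand, recruited by UHRF1, which reads hemimethylated DNA and ubiquitinates histone H3. UHRF2 is a relative of UHRF1 that binds hydroxymethylated DNA. The active enzymes use S-adenosylmethionine (SAM), the methyl donor made from methionine.

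Values are given as log2 of the processed array signal after quantile normalization within a generation, unless stated otherwise, and are comparable between arrays for one probe but not between probes. The median signal of an array before scaling was 251.37 to 317.81 in CD F1 and 166.56 to 262.42 in MD F1. Signal thus went partly with diet in F1, with dimmer arrays in MD F1. It was 151.33 to 262.04 in CD F2 and 148.21 to 261.9 in MD F2. Between 33926 and 37013 spots were well above background in F1 and between 27383 and 34661 in F2, with the fewest in MD F2 replicate 3 and CD F2 replicate 6. Diet was balanced over slides, with 2 arrays of each diet on each of the 3 slides of a generation. MD F1 replicate 6 lay far from the other 5 arrays of its group on 17.1% of the 23757 probes that were well above background on all arrays, against 0.118% to 3.51% for the other 23 arrays. The difference between Xist and the mean of 4 Y-linked genes (log2, the Xist measure below) lay between 1.89 and 2.3 in the CD F1 pools. In the MD F1 pools it lay between -0.15 and 2.15, lowest in replicate 6. The measure thus went partly with diet in F1, and F1 values with it as a covariate do not fully separate diet from it. In F2 it was 7.43 or higher in 3 pools and -5.23 or lower in 9. The mean level of 8 choroid plexus markers ranged from 7.84 to 11.03 in CD F1, 7.99 to 12.19 in MD F1, 7.47 to 12.74 in CD F2 and 7.28 to 12.06 in MD F2, so that it varied widely in every group, and each marker was well above background on at least 23 arrays. The level was also uneven between the diets. All 8 markers were higher in MD F1 than in CD F1, with a median log2 difference of 0.52. In MD F2 0 of the 8 were higher than in CD F2, with a median of -2.31. The median of all probes was 0.01 in both generations, and 0 of the 8 were called in either. All 10 hippocampal markers were well above background on all 24 arrays.

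Each of the 6 genes had at least 1 probe well above background in every pool. Whether a probe also bound other transcripts was not tested. Of the 10 probes, 9 were well above background on all 24 arrays, with no saturated or irregular spot. Among all 39429 probes, 23757 were well above background on all 24 arrays with a regular spot on each. The Dnmt3a probe, for the de novo enzyme that is most prominent in mature neurons, had processed signals of 3720 to 9180, 251 to 3740 times the 95th percentile of the negative control spots of the same array. The Dnmt1 signal was 682 to 1310, 47.4 to 556 times that percentile. The Dnmt3l signal was 43.0 to 97.4 and still 3.12 to 43.0 times the negative control percentile, with the ratios up to 4.8 on MD F2 replicate 3 and CD F2 replicate 6, where the control spots were bright, and 18.9 or higher on the other 22 arrays. These ratios describe detection and do not rank the genes, since probes differ in their binding. Only the second Uhrf1 probe (A_66_P120074) was mostly at background: it was well above it on 1 array, CD F1 replicate 6, and its signal was 1.62 to 14. No fold change is given for that probe.

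No probe of the 6 genes was called in either generation. At a false discovery rate (FDR, Benjamini-Hochberg over all probes, limma) under 0.1, 0 of the 10 were called in MD F1 against CD F1, where 0.0279% of all probes (11 of 39429) were called, and 0 of the 10 reached an unadjusted p under 0.05, where 14.5% of all probes did. In MD F2 against CD F2, 0 of the 10 were called, as were 0 of all 39423 probes tested. Only 1 of the 10, the Uhrf1 probe at background, was below an unadjusted limma p of 0.05 (FDR = 0.89), where 5.56% of all probes did. The diet groups overlapped for all 10 probes in both generations, against 1.83% of all probes without overlap in F1 and 0.35% in F2. Among the 9 detected probes, 5 were higher and 4 lower in MD F1, with a median log2 difference of 0.01, the same as the median of all probes (0.01). In MD F2, 7 were higher and 2 lower, with a median of 0.02 beside 0.01 for all probes. The 95% confidence intervals of the 9 probes together spanned -0.59 to 0.37 in F1, or 0.666- to 1.3-fold, and -0.35 to 0.43 in F2, or 0.784- to 1.35-fold. Without scaling between arrays, the median of all probes shifted to -0.28 in F1, 0 of the 10 probes were higher in MD F1, and Dnmt3l (-0.405, limma FDR = 0.0968) and Uhrf1 (-0.325, limma FDR = 0.0891) were among 7952 probes called, so that the F1 directions below are relative to the rest of the array. As bulk tissue was measured, fewer cells that express a gene and less RNA per cell cannot be told apart in these values.

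**Figure D1:**
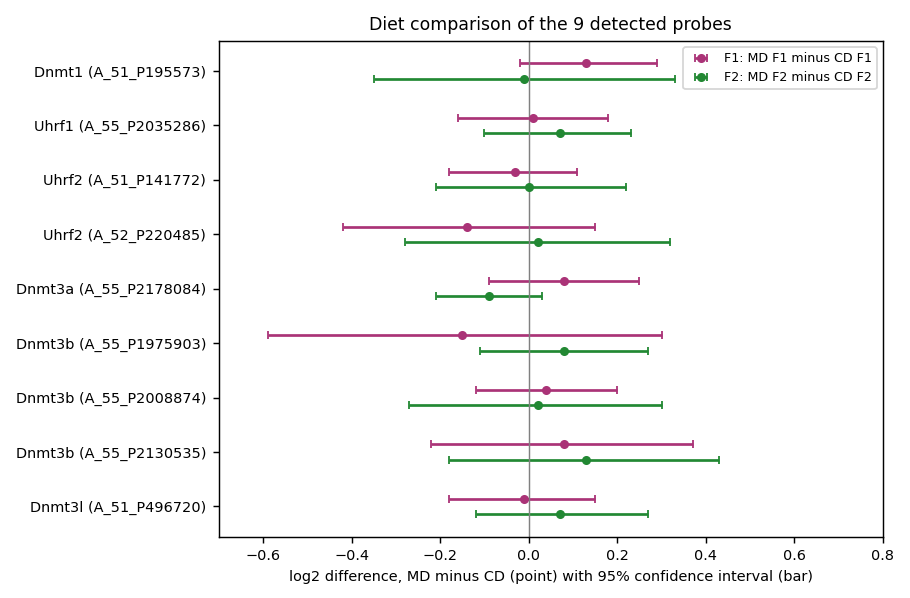
Log2 difference between the methyl donor-rich and the control diet for the 9 detected probes in F1 (purple) and F2 (green), with points for the fitted difference and bars for its 95% confidence interval. Every interval includes 0, and all lie between -0.59 and 0.43.

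Dnmt1, the maintenance methyltransferase, had log2 signals of 9.72, 9.91 and 10.03 in CD F1 (lowest, median and highest array) and of 9.92, 10.02 and 10.2 in MD F1. Of the 6 MD F1 pools 3 lay above the highest control pool and the rest inside the control range. CD F1 averaged 9.91 ± 0.109 and MD F1 10.04 ± 0.11 (both SD, n = 6). The difference of 0.13 (SE 0.0713, 95% CI -0.02 to 0.29; -0.153 without scaling) did not pass (limma FDR = 0.397; two-sided exact permutation test over the 924 splits, p = 0.0563). It was positive on 3 of 3 slides, from 0.09 to 0.162, and was 0.159 without MD F1 replicate 6 and 0.214 (limma FDR = 0.404) with the Xist measure as a covariate, with which Dnmt1 correlated within the F1 groups (r = 0.62 over 12 arrays). Its unadjusted limma p was under 0.05 in both of these settings. The same held with normexp background correction (0.158, limma FDR = 0.317) and array weights (0.148, limma FDR = 0.246). It held in no other alternative run. The difference was 0.113 (limma FDR = 0.474) with 75th percentile scaling and 0.133 (limma FDR = 0.802) with all 24 arrays in one fit. It was 0.097 without CD F1 replicate 2 and 0.103 without MD F1 replicate 5. With the settings used throughout, Dnmt1 had the smallest p among the 9 detected probes in F1, and 20.8% of all probes had a smaller one. Its correlation with the Xist measure was not particular to it. Over the 9 detected probes that correlation ran within F1 from -0.75 (Dnmt3b A_55_P2130535) to 0.79 (Dnmt3b A_55_P1975903).

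In F2 the Dnmt1 signals spread further, with 9.44, 10 and 10.08 in CD F2 and 9.57, 9.75 and 10.22 in MD F2. Both F2 groups split into pools at 9.99 or above and pools at 9.82 or below, and the diet groups overlapped over most of their range. The means were 9.84 ± 0.282 (SD, n = 6) and 9.83 ± 0.275 (SD, n = 6), a difference of -0.01 (SE 0.156, 95% CI -0.35 to 0.33, limma FDR = 0.998). The SD within groups was 2.54 times that of F1, while the median ratio over all probes was 1.27. The 3 F2 pools with Xist above the Y-linked genes, CD F2 replicates 3 and 5 and MD F2 replicate 6, had Dnmt1 signals of 9.44, 9.53 and 9.82. In CD F2 these were the lowest pools, but in MD F2 replicates 2, 4 and 5, with the Y-linked genes above Xist, were lower still, at 9.67, 9.57 and 9.61. With this Xist measure as a covariate the F2 difference was -0.067; its part in the spread was not tested. Within the F2 groups Dnmt1 correlated with the Xist measure with r = -0.52, opposite in sign to F1, over 12 arrays. Its correlation with the choroid plexus level was -0.18 within the F2 groups and 0.46 within the F1 groups, each over 12 arrays. The part of that tissue in the Dnmt1 values was not tested.

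Uhrf1, the cofactor that brings DNMT1 to replicated DNA, was measured by one probe above background (A_55_P2035286). Its log2 signals were 7.69, 7.93 and 8.01 in CD F1 and 7.8, 7.83 and 8.1 in MD F1, so that the MD F1 pools lay within the control range apart from the highest. The means were 7.88 ± 0.134 (SD, n = 6) and 7.89 ± 0.118 (SD, n = 6), with a difference of 0.01 (SE 0.0784, 95% CI -0.16 to 0.18, limma FDR = 0.96). In F2 the signals were 6.44, 6.59 and 6.7 in CD F2 and 6.52, 6.62 and 6.83 in MD F2. The difference was 0.07 (SE 0.0748, 95% CI -0.1 to 0.23, limma FDR = 0.944), positive on 3 of 3 slides with 0.041 to 0.085. The diet groups overlapped in both generations, and the F1 difference was -0.031 without MD F1 replicate 6.

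Uhrf2 was measured by 2 probes, both detected on all arrays. Probe A_51_P141772 read 12.08, 12.24 and 12.39 in CD F1 and 12.06, 12.18 and 12.29 in MD F1, a difference of -0.03 (SE 0.0662, limma FDR = 0.828; -0.052 without MD F1 replicate 6). Probe A_52_P220485 read 9.58, 9.76 and 9.96 in CD F1 and 9.01, 9.73 and 9.83 in MD F1. The difference of the latter was -0.14 (SE 0.131, limma FDR = 0.635) and shrank to -0.016 without MD F1 replicate 6, the array with 9.01, while the other 5 MD F1 arrays lay between 9.68 and 9.83. In F2, both probes had differences close to 0, with 0.0 (SE 0.0992) for the first and 0.02 (SE 0.137) for the second, and the diet groups overlapped. Their deviations from the group means correlated with r = 0.33 over the 24 arrays.

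Dnmt3a, the main de novo enzyme of the adult brain, had log2 signals of 12.78, 12.86 and 12.96 in CD F1 and 12.81, 12.88 and 13.24 in MD F1. The high value came from MD F1 replicate 6, and the other pools of both diets shared one range. The means were 12.86 ± 0.0785 (SD, n = 6) and 12.94 ± 0.157 (SD, n = 6). The difference of 0.08 (SE 0.0778, limma FDR = 0.637) became 0.022 without that array. It arose on a single slide, with 0.254 there and -0.006 and -0.005 on the other two.

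In F2 the Dnmt3a signals were 12.24, 12.37 and 12.41 in CD F2 and 12.19, 12.24 and 12.32 in MD F2. All MD F2 pools but one lay at or below 12.27, whereas 5 of the 6 CD F2 pools lay at or above 12.28. The means were 12.34 ± 0.066 (SD, n = 6) and 12.25 ± 0.0447 (SD, n = 6). The difference of -0.09 (SE 0.0551, 95% CI -0.21 to 0.03, 0.937-fold) did not pass over all probes (limma FDR = 0.917, unadjusted p = 0.116), while the two-sided exact permutation test on this probe alone gave p = 0.0195. It is one of 18 such single-probe tests on the detected probes, and the smallest p that the test can give is 0.00216. It was negative on 3 of 3 slides, from -0.173 to -0.018, and between -0.114 and -0.081 when each array was left out in turn. The diet effect differed between the generations by 0.18 (F1 minus F2, SE 0.0905, 95% CI -0.01 to 0.36), with an adjusted p of 0.629 in limma (0.0641 unadjusted). That was the smallest FDR among the 9 detected probes for the difference of the diet effects. None of the 10 probes was called for that difference or had an unadjusted p under 0.05, against 0.0127% and 8.21% of all probes. With array weights, 2 of the 10 had an unadjusted p under 0.05 for it, Dnmt1 (0.316, limma FDR = 0.33) and Dnmt3a (0.162, limma FDR = 0.349), and with normexp background correction Dnmt3a did (0.221, limma FDR = 0.575). Dnmt3a also did without CD F1 replicate 1 (0.195), MD F1 replicate 5 (0.202) or CD F2 replicate 1 (0.198).

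Dnmt3b, the other de novo enzyme, was represented by 3 probes for the same transcript, which did not behave alike. Probe A_55_P1975903 read 8.18, 8.29 and 8.46 in CD F1 and 7.18, 8.26 and 8.75 in MD F1. Probe A_55_P2130535 read 8.41, 8.45 and 8.53 in CD F1 and 8.32, 8.41 and 9.23 in MD F1. Probe A_55_P2008874 read 6.66, 6.73 and 6.88 in CD F1 and 6.57, 6.79 and 6.94 in MD F1. MD F1 replicate 6 was the lowest array of its group on the first probe (7.18) and the highest on the second (9.23), and with 6.74 it lay inside the range of the others on the third. The differences in F1 were -0.15 (SE 0.202, limma FDR = 0.751), 0.08 (SE 0.137, limma FDR = 0.812) and 0.04 (SE 0.0724, limma FDR = 0.807) in the same order. Without that array the first turned to 0.05 and the second to -0.064, while the third was 0.049. Across the 24 arrays the deviations of the first and second probe correlated with r = -0.66, and with r = -0.44 without MD F1 replicate 6 and the pair MD F2 replicate 3 and CD F2 replicate 6. The Dnmt3b value of an array thus depended on the probe.

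**Figure D2:**
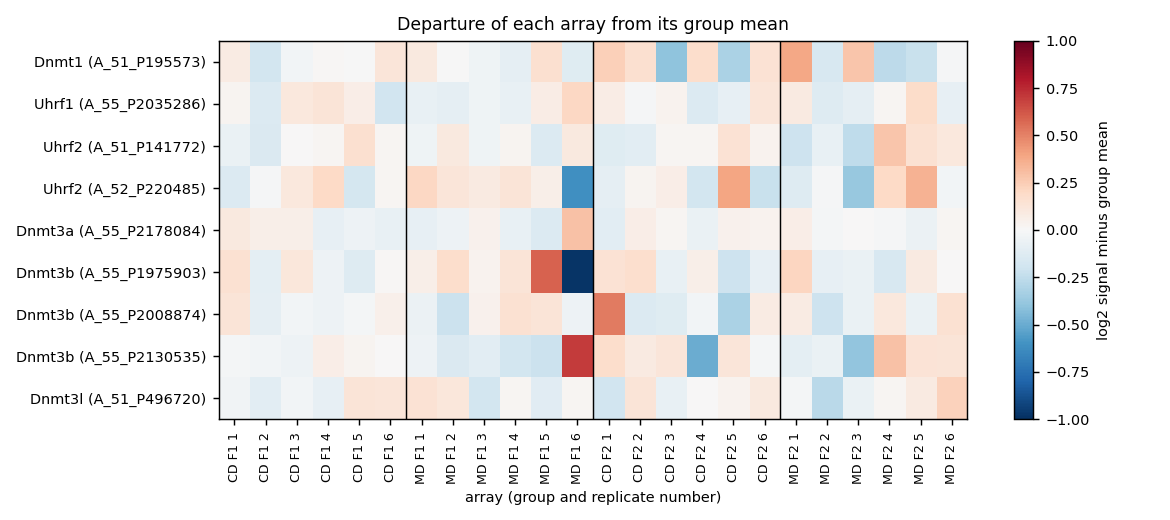
Departure of each of the 24 arrays (columns, by group and replicate number) from the mean of its group for the 9 detected probes (rows), as log2 signal on a color scale from -1 (blue) to 1 (red). MD F1 replicate 6 is blue for Dnmt3b A_55_P1975903 and Uhrf2 A_52_P220485 and red for Dnmt3b A_55_P2130535, and the Dnmt1 row is more strongly colored in F2 than in F1.

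In F2 the 3 Dnmt3b probes gave differences of 0.08 (SE 0.088, limma FDR = 0.946), 0.13 (SE 0.14, limma FDR = 0.946) and 0.02 (SE 0.129, limma FDR = 0.997) for A_55_P1975903, A_55_P2130535 and A_55_P2008874. The log2 signals of A_55_P2130535 were 6.88, 7.48 and 7.55 in CD F2 and 7.11, 7.53 and 7.8 in MD F2. CD F2 replicate 4 alone held the low end of the control group on that probe, and leaving out each array in turn gave differences of 0.026 to 0.206. Here too the diet groups overlapped.

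Dnmt3l, the catalytically inactive cofactor, had log2 signals of 6.04, 6.12 and 6.28 in CD F1 and 5.95, 6.16 and 6.28 in MD F1. The means were 6.15 ± 0.103 (SD, n = 6) and 6.14 ± 0.128 (SD, n = 6), and the ranges nearly coincided. The F1 difference was -0.01 (SE 0.0742, 95% CI -0.18 to 0.15, limma FDR = 0.943), and -0.019 without MD F1 replicate 6. In F2 the signals were 5.84, 6.05 and 6.16 in CD F2 and 5.84, 6.11 and 6.34 in MD F2. The F2 difference was 0.07 (SE 0.0904, 95% CI -0.12 to 0.27, limma FDR = 0.953). Dnmt3l deviations correlated with the choroid plexus level with r = -0.6 within the F2 groups and r = -0.13 within F1, each over 12 arrays; the part of that tissue in the Dnmt3l values was not tested.

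**Figure D3:**
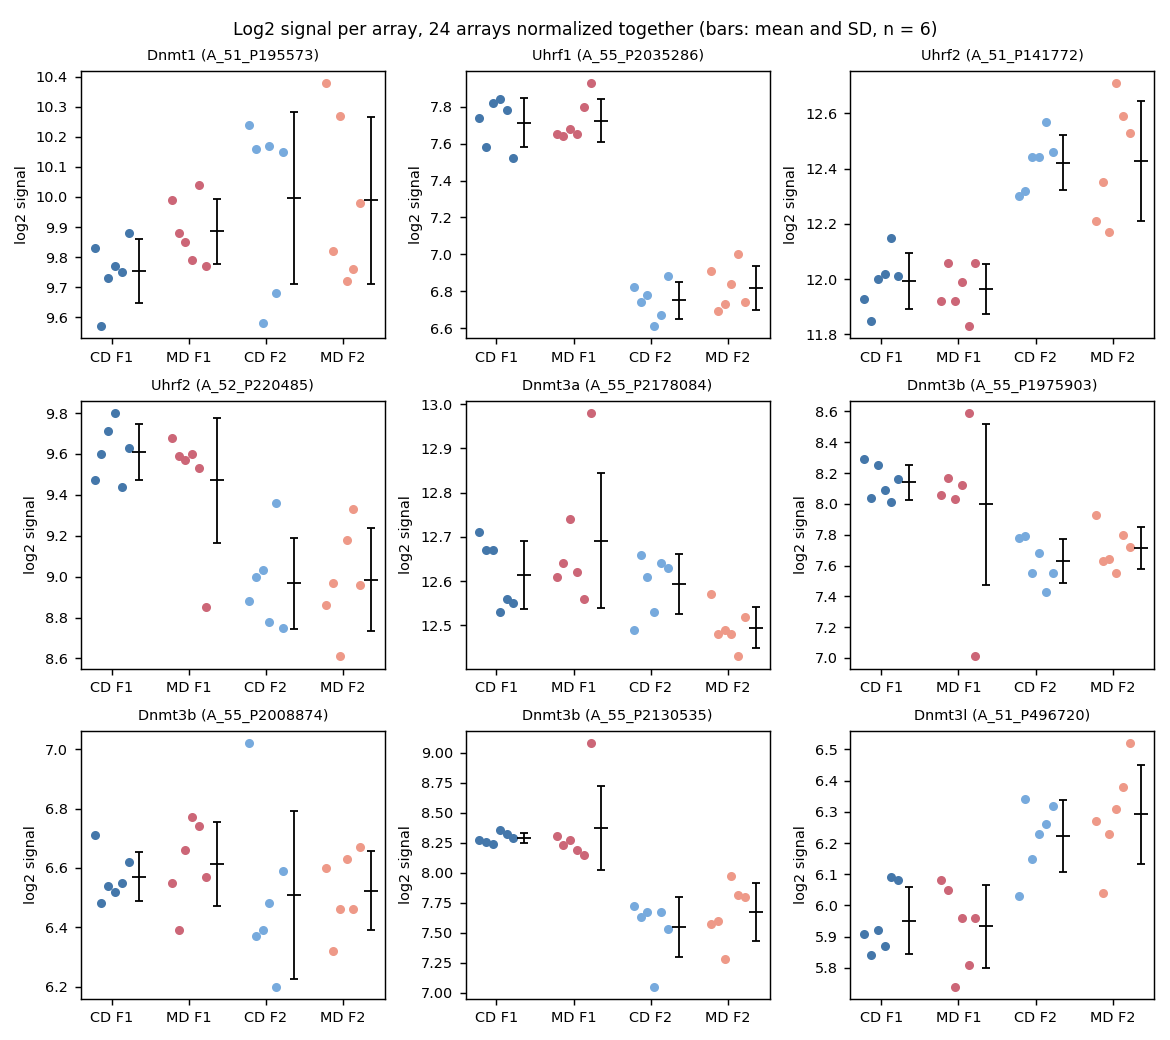
Log2 signal of the 9 detected probes on each of the 24 arrays, normalized together, with 1 point per pool of mice and the mean and SD of each group of 6 as a bar; each panel has its own axis. Within a generation the diet groups overlap in every panel, while Uhrf1, Dnmt3b A_55_P2130535 and Uhrf2 A_51_P141772 separate F1 from F2.

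Levels across the 4 groups were set side by side after normalizing all 24 arrays together, as a description only. For 3 of the 10 probes the 12 F1 arrays and the 12 F2 arrays did not overlap, against 25.7% of all probes (12.9% lower and 12.8% higher in F2). Uhrf1 A_55_P2035286 was lower in F2, with 7.52 to 7.93 in F1 and 6.61 to 7.0 in F2 and a difference of means of -0.93. Dnmt3b A_55_P2130535 was also lower, with 8.15 to 9.08 in F1 and 7.05 to 7.97 in F2 (-0.72). Uhrf2 A_51_P141772 was higher, with 11.83 to 12.15 in F1 and 12.17 to 12.71 in F2 (0.45), whereas the other Uhrf2 probe was lower on average in F2 (-0.57) and overlapped between generations only through MD F1 replicate 6. The 2 Uhrf2 probes thus differed in direction. Without MD F1 replicate 6, 5 of the 10 probes did not overlap, against 29.2% of all probes. Those added were Uhrf2 A_52_P220485, with 9.44 to 9.8 on the other 11 F1 arrays and 8.61 to 9.36 in F2, and Dnmt3b A_55_P1975903, with 8.01 to 8.59 and 7.43 to 7.93.

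For Dnmt1 and Dnmt3a most neighbors in the order of the 4 groups were not resolved by their spread. Group means of Dnmt1 ran from CD F2 (10 ± 0.286) over MD F2 (9.99 ± 0.279) and MD F1 (9.89 ± 0.108) to CD F1 (9.75 ± 0.107), all SD with n = 6, and no neighbors in that order differed by more than their SDs except MD F1 and CD F1, by slightly more than 1 SD. Group means of Dnmt3a ran from MD F1 (12.69 ± 0.153) over CD F1 (12.61 ± 0.075) and CD F2 (12.59 ± 0.0688) to MD F2 (12.49 ± 0.0468). Of these neighbors only CD F2 and MD F2 lay further apart than 1 SD. Dnmt3l was highest in MD F2 (6.29 ± 0.162) and lowest in MD F1 (5.94 ± 0.135), with CD F2 (6.22 ± 0.116) and CD F1 (5.95 ± 0.108) between them. The F2 groups did not differ beyond their spread, nor did the F1 groups, whereas CD F2 lay above CD F1 by 0.27. For Uhrf2 A_52_P220485, CD F1 (9.61 ± 0.138) and MD F1 (9.47 ± 0.306) lay above MD F2 (8.98 ± 0.251) and CD F2 (8.97 ± 0.224), with no difference beyond the spread between diets. For Dnmt3b A_55_P1975903, CD F1 (8.14 ± 0.113) lay above MD F2 (7.71 ± 0.138) and CD F2 (7.63 ± 0.144) by more than their SDs, whereas MD F1 (8.0 ± 0.524) spread too widely to be placed. Slide, scan, genetic background and the Xist measure of the pools changed with the generation, so these differences cannot be told apart from them.

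Genes whose signal followed each enzyme most closely were listed from the deviations of 24 arrays from their group means, among 13732 genes detected on all arrays. All share the same libraries and arrays, and the correlations are descriptions. Dnmt1 went with Dhcr7, the last enzyme of cholesterol synthesis (r = 0.94), Mta1, a subunit of the NuRD repressor complex (r = 0.94), and Tcf7l2, a transcription factor of Wnt signaling (r = 0.93). These values were no lower than 0.93 without 3 arrays (MD F1 replicate 6 and the F2 arrays with the fewest spots above background), but they were larger within F2 (0.97, 0.98 and 0.95) than within F1 (0.76, 0.63 and 0.82). In F2, 30.0% of 23756 detected probes had a correlation with Dnmt1 above 0.7 or below -0.7, against 3.39% in F1. Shares of this size were not particular to Dnmt1: they were 31.2% for Dnmt3b A_55_P2130535 and 25.5% for Dnmt3b A_55_P1975903 in F1, and 22.2% in F1 and 24.8% in F2 for Uhrf2 A_52_P220485.

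Dnmt3a went with Lrp8, a reelin receptor (r = 0.84). It also went with Kcnmb2 A_55_P2112524, an auxiliary subunit of the BK potassium channel (r = 0.83), and Gopc, a Golgi scaffold protein (r = 0.83). Without the same 3 arrays the correlations with Lrp8, Kcnmb2 and Gopc fell to 0.73, 0.68 and 0.69. Within the generations they were 0.92, 0.84 and 0.92 in F1 and 0.54, 0.78 and 0.51 in F2. Uhrf1 went with St8sia1, which makes the ganglioside GD3 (r = 0.76), the integrin Itga11 (r = 0.72) and the BDNF receptor Ntrk2 (r = 0.71), with 0.8, 0.71 and 0.8 within F1 and 0.73, 0.73 and 0.58 within F2. Uhrf2 A_51_P141772 went with Crip3 (r = 0.88), Grhl1 (r = 0.85) and Zfp51 (r = 0.85), with 0.83, 0.6 and 0.67 within F1 and 0.89, 0.92 and 0.9 within F2. The Dnmt3b probe A_55_P2130535 went with Pask (r = 0.9), Tbc1d31 (r = 0.89) and the translation kinase Eif2ak4 (r = 0.88), and these were 0.79, 0.79 and 0.82 without the 3 arrays, 0.9, 0.92 and 0.92 within F1 and 0.89, 0.85 and 0.83 within F2. Dnmt3l went with the synaptic protein Cplx4 (r = 0.68), Cryga (r = 0.67) and Stk32c (r = 0.66), with 0.87, 0.48 and 0.57 within F1 and 0.53, 0.8 and 0.73 within F2.

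The wider methylation pathway was followed in 6 lists with 75 measured genes, each by its brightest probe. In MD F1 against CD F1, 0 of the 75 were called and 12 (16.0%) had an unadjusted p under 0.05, 4 higher and 8 lower, where 14.5% of all probes did (7.26% higher and 7.28% lower). In MD F2 against CD F2, 0 were called and 3 (4.0%) had an unadjusted p under 0.05, where 5.56% did. Both shares were near those of all probes.

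The SAM cycle, which supplies the methyl groups, held the smallest p of all lists in F1. Mat2a, the enzyme that makes SAM outside the liver, had a log2 signal difference of -0.41 (SE 0.073, limma FDR = 0.12) in F1. In the authors' own analysis of the F1 arrays the same probe was lower in MD F1 and passed an FDR threshold of 0.1. They also reported lower Mat2a in MD F1 by qPCR on separate samples. The small gap in FDR is thus no sign that the Mat2a difference is absent. With the fits used here, the Mat2a FDR was 0.0873 without MD F1 replicate 6, with the same difference of -0.41, and 0.3 with the Xist measure as a covariate. Ahcy, which removes the product of methyl transfer, differed by -0.26 in F1 (SE 0.112, limma FDR = 0.329) and by -0.22 in F2 (SE 0.187, limma FDR = 0.937); the F1 value was -0.17 without MD F1 replicate 6 and -0.06 with the Xist measure. Mtrr, which reactivates methionine synthase, differed by 0.2 in F1 (limma FDR = 0.509), and Gnmt, a glycine methyltransferase that consumes SAM, by -0.18 in F2 (limma FDR = 0.898). Of the 9 genes of this list above background, 3 were higher and 6 lower in MD F1, as in MD F2, and none was called with the settings used throughout.

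Among 13 maintenance partners, 3 were higher at an unadjusted p under 0.05 in MD F1 and none lower, where 7.26% of all probes were higher and 7.28% lower. Hells, a chromatin remodeler needed for DNA methylation, differed by 0.83 (SE 0.325, limma FDR = 0.293), with SDs of 0.407 in CD F1 and 0.766 in MD F1, and was 0.6 (limma FDR = 0.352) without MD F1 replicate 6. Its activator Cdca7 differed by 0.28 (SE 0.0942, limma FDR = 0.252) and the DNMT1-associated protein Dmap1 by 0.16 (SE 0.0562, limma FDR = 0.255). With the Xist measure as a covariate Hells was 0.52 and Cdca7 0.15, neither with an unadjusted p under 0.05, and Dmap1 was 0.17. In F2 Dmap1 differed by 0.09 (limma FDR = 0.917) and Pclaf, a PCNA-binding protein, by -0.19 (limma FDR = 0.917).

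Among 21 genes that guide de novo methylation through histone marks, 3 were lower at an unadjusted p under 0.05 in MD F1 and none higher, where 7.28% of all probes were lower and 7.26% higher. These were the histone methyltransferase Nsd2 (-0.34, SE 0.0923, limma FDR = 0.205), the heterochromatin histone methyltransferase Suv39h1 (-0.53, SE 0.203, limma FDR = 0.287) and the imprint-protecting zinc finger protein Zfp445 (-0.56, SE 0.213, limma FDR = 0.287). In the same order they were -0.3, -0.36 and -0.34 without MD F1 replicate 6 and -0.25, -0.13 and -0.16 with the Xist measure, where only Nsd2 had an unadjusted p under 0.05. In F2 the histone methyltransferase Ehmt1 (-0.36, SE 0.153, limma FDR = 0.89) and the CpG-island binding Kdm2b (-0.18, SE 0.0884, limma FDR = 0.898) had the smallest p. None was called.

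Among 8 measured erasers, the DNA glycosylase Tdg differed by -0.51 in F1 (SE 0.117, limma FDR = 0.19) and by 0.33 in F2 (SE 0.106, limma FDR = 0.89). Gadd45b differed by -0.36 (limma FDR = 0.295) and Gadd45a by 0.23 (limma FDR = 0.334) in F1. Without MD F1 replicate 6 Tdg was -0.42, Gadd45b -0.24 and Gadd45a 0.15 in F1, and with the Xist measure they were -0.32, -0.08 and 0.09. In F2 the repair endonuclease Apex1 differed by 0.13 (limma FDR = 0.918). Among 8 readers of methylated DNA, Zbtb38 differed by -0.42 in F1 (SE 0.129, limma FDR = 0.224; -0.31 without MD F1 replicate 6 and -0.21 with the Xist measure), Zbtb33 by -0.36 (limma FDR = 0.496) and Mbd1 by -0.1 (limma FDR = 0.621). In F2 Mbd4 differed by 0.2 (limma FDR = 0.907) and Zbtb33 by 0.08 (limma FDR = 0.955). Of 15 cell division genes, which mark the dividing cells where Dnmt1 and Uhrf1 are most used, none reached an unadjusted p under 0.05 in F1, where 14.5% of all probes did. Tyms was at -0.13, Mki67 at 0.21 and Mcm3 at 0.08. In F2 Mcm5 differed by 0.19 (SE 0.0776, limma FDR = 0.89) and Ccna2 by 0.24 (limma FDR = 0.898).

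**Figure D4:**
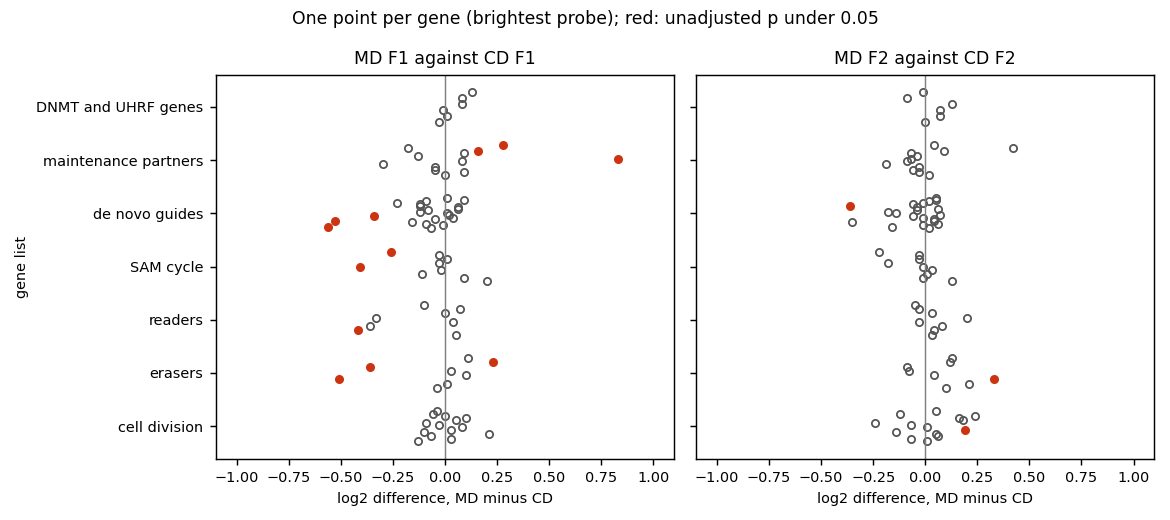
Log2 difference between the methyl donor-rich and the control diet in F1 (left) and F2 (right) for each gene of the 6 pathway lists and for the DNMT and UHRF genes, with 1 point per gene that was above background and red points for an unadjusted p under 0.05. The 6 DNMT and UHRF genes lie near 0 in both panels with no red point, and 12 list genes are red in F1 and 3 in F2.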

How the data were processed

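The arrays were Agilent 4x44K mouse arrays with 1 color. The authors deposited, for each array, the processed intensity of every spot from Agilent Feature Extraction (version 10.7.3.1 in the file headers), background-subtracted, linear and not scaled between arrays. A deposited table of the authors' quantile-normalized intensities was used as an alternative. Irregular spots were left out, replicate spots were averaged on the log2 scale, and arrays were quantile-normalized within a generation (all 24 together to compare generations). A linear model was fitted to all probes with limma 3.58.1 (R 4.3.3), with values required on at least 2 arrays per group and a threshold of FDR under 0.1; the SE and 95% intervals are those of the moderated fit. Single probes were also compared by two-sided exact permutation tests. Fits were also run on simulated data with independent noise and added changes larger than the differences of the 6 genes. Those runs do not show whether changes as small as these would be called. Probes were named through the array identifiers, with no coordinates; a probe not above background in a group was given no fold change. Named from each pathway list were the genes of lowest p (3 for F1, 2 for F2), and for each member the 3 most correlated genes. The 6 genes and all lists were chosen with earlier results of these data known. Alternatives covered scaling, background correction, dim and irregular spots, slide, replicate number, sex measure, array weights, a fit of all 24 arrays, the lh or rh code of the F2 labels, a stricter FDR and left-out arrays. The files used hold no mean signal, so normexp (offset 50) was run on the median signal. The number of arrays limits the precision.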

Additional observations from a re-analysis of the deposited data

Results flagged for a closer look

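In 40 sets of 6 arrays (10 probes in 4 groups), 5 arrays lay far from the other 5 of their set; chance gives about 2. Dnmt3b A_55_P1975903 read 7.18 in MD F1 replicate 6, where the other 5 arrays read 8.2 to 8.75. Dnmt3b A_55_P2130535 read 9.23 in the same array, where the others read 8.32 to 8.48. Uhrf2 A_52_P220485 read 9.01 in that array too, where the others read 9.68 to 9.83. Dnmt3b A_55_P2130535 read 6.88 in CD F2 replicate 4, where the others read 7.36 to 7.55. The Uhrf1 probe at background, A_66_P120074, read 3.41 in CD F1 replicate 6, where the others read 1.56 to 2.2. Of these 5 values 3 belong to MD F1 replicate 6, which stood apart on 17.1% of all detected probes. The F1 differences without that array are given with each probe; the cause was not tested.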

How the results depend on the processing

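The count of called probes stayed at 0 in F1, F2 and the difference of the diet effects under every alternative run, except in F1 without scaling between arrays, where it was 2. Of 747 recomputed log2 differences of single probes, 676 kept their direction and side of the threshold, and 70 changed sign. Both probes that passed did so in F1 without scaling: Dnmt3l (-0.405) kept its sign and Uhrf1 (-0.325) is 1 of the 70; most main values lie close to 0. The number of detected probes was 9 under each of the detection rules run.

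Sign changes in F1 were as follows. With scaling to the 75th percentile, Dnmt3b A_55_P2008874 was -0.07 and Uhrf1 -0.058. Without scaling, Dnmt1 was -0.153, Dnmt3a -0.135, Dnmt3b A_55_P2008874 -0.337, Dnmt3b A_55_P2130535 -0.236 and Uhrf1 -0.325. With the sex measure, Dnmt3a was -0.016, Dnmt3b A_55_P1975903 0.205, Dnmt3b A_55_P2130535 -0.143, Uhrf1 -0.041 and Uhrf2 A_52_P220485 0.065. With array weights, Dnmt3b A_55_P2130535 was -0.037 and Uhrf1 -0.046. In F2, the 75th percentile gave Dnmt3b A_55_P2008874 -0.05, Uhrf1 -0.004 and Uhrf2 A_52_P220485 -0.019. Without scaling, Dnmt3b A_55_P1975903 was -0.025, Dnmt3b A_55_P2008874 -0.096, Dnmt3l -0.034, Uhrf1 -0.05, Uhrf2 A_51_P141772 -0.02 and Uhrf2 A_52_P220485 -0.064. Dnmt3b A_55_P2008874 was -0.006 with the sex measure and -0.008 with array weights. For the difference of the diet effects, Dnmt3b A_55_P2008874 was -0.02 with the 75th percentile, -0.242 without scaling and -0.002 without CD F2 replicate 6 and MD F2 replicate 3 together (chosen after seeing the data). Without scaling, Dnmt1 was -0.079 and Dnmt3a -0.023 there, and with normexp Uhrf1 was 0.002. The cause of these changes was not tested.

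Leaving out each array in turn changed signs in these ranges. In F1, Dnmt3b A_55_P1975903 ranged from -0.263 to 0.05, Dnmt3b A_55_P2130535 from -0.064 to 0.119, Dnmt3l from -0.042 to 0.023 and Uhrf1 from -0.031 to 0.035. In F2, Dnmt1 ranged from -0.091 to 0.043, Dnmt3b A_55_P2008874 from -0.047 to 0.123, Uhrf2 A_51_P141772 from -0.051 to 0.054 and Uhrf2 A_52_P220485 from -0.052 to 0.098. For the difference of the diet effects, Dnmt3b A_55_P2008874 ranged from -0.077 to 0.088, Dnmt3b A_55_P2130535 from -0.191 to 0.05 and Uhrf2 A_51_P141772 from -0.089 to 0.02.

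With the replicate number as a block, 0 of the 10 probes were called in F1, 0 in F2 and 0 for the difference. Over all probes the block changed the calls from 11 to 0 in F1 and from 5 to 0 for the difference. The numbers did not pair the arrays, since correlations of same-numbered arrays ran from -0.054 to 0.205 in F1 and from -0.174 to 0.193 in F2, so this is no measure of a weaker effect. Over all probes in F1, 0 were called with the slide block or the sex measure, 573 with array weights and 7952 without scaling. Of the 75 pathway genes in F1, the 12 at an unadjusted p under 0.05 became 7 with the sex measure, 13 without MD F1 replicate 6 and 30 without scaling, where all 30 were lower and 19 were called (alternatives added after seeing the data).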
